A study of Rattus norvegicus with 4 samples.

Results

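Matrix metalloproteinases and their inhibitors were followed through 4 cultures of the rat skeletal myoblast line L6, each measured on 1 Affymetrix Rat Genome array. The set comprised 10 genes of the 14217 with a gene symbol on the array. Of these, 7 encode proteases (Mmp2, Mmp3, Mmp9, Mmp10, Mmp11, Mmp13 and Mmp14) and 3 encode inhibitors (Timp1, Timp2 and Timp3). They were found as the probe sets whose single annotated symbol was one of these names, which gave 17 of the 31042 probe sets compared, and the probe sets of a gene were averaged. The 4 cultures were the L6-HGF sheet, the L6-HGF monolayer, the L6-WT sheet and the L6-WT monolayer. L6-HGF myoblasts had received the pBabepuro retrovirus for constitutive expression of human HGF, followed by puromycin selection. L6-WT is the unmodified line. No line with the empty vector is described, so the effects of HGF, of the vector and of the selection cannot be told apart, and all of them are meant here by "hHGF effect". A sheet is a confluent layer of myoblasts that detaches whole from a thermoreactive dish, and a monolayer is an ordinary culture of the same cells. The study asked how constitutive hHGF expression acts on the myoblasts themselves, as donor cells for grafts.

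Matrix metalloproteinases are zinc-dependent proteases that cut collagens, other matrix proteins and many cell surface and secreted proteins. Most are secreted as inactive proenzymes and gain activity only when the prodomain is removed, so that the mRNA does not tell how much active enzyme is present. Tissue inhibitors of metalloproteinases (TIMPs) bind the active site of these proteases, and the balance of both sets the rate at which matrix is turned over around migrating or fusing myoblasts.

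The deposited values are log2 signals in which each probe set is set relative to the median of its own 4 arrays. They therefore hold differences between cultures and no signal level. No gene can be compared with another for abundance, a gene near background cannot be told from a well expressed one, and the myoblast identity of the cultures could not be checked by the level of its markers. With 1 array per culture, no difference has a replicate, and no source says how many dishes went into a culture. As a measure of technical spread, the SD of log2 differences over 45 probe sets for bacterial controls was 0.12 to 0.22 in the 4 comparisons, and the largest single control difference was 0.51.

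None of the 10 genes differed by more than 2-fold in any comparison. Between L6-HGF and L6-WT, 0 of 10 passed 2-fold in sheets and 0 of 10 in monolayers, where 1.44% and 0.535% of all genes did so. Between sheet and monolayer, 0 of 10 passed in L6-HGF and 0 of 10 in L6-WT, where 3.75% and 1.21% of all genes did so. With so few genes, a count of 0 lies near that background and is no result about the set. At 1.5-fold, Mmp11 passed in all 4 comparisons and Timp1 in 2 of them, and the other 8 genes passed in none. This gave 1 of 10 genes for L6-HGF against L6-WT in sheets (5.78% of all genes) and 2 of 10 in monolayers (2.51%). For sheet against monolayer it gave 1 of 10 in L6-HGF (11.3%) and 2 of 10 in L6-WT (7.13%).

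Mmp11, or stromelysin-3, is a metalloproteinase that is activated inside the cell by furin and is known from stroma next to epithelium. It had the widest range of the 10 genes, wider than that of 97.9% of all genes. Its centred log2 signal was -0.82 in the L6-HGF sheet, 0.02 in the L6-HGF monolayer, -0.02 in the L6-WT sheet and 0.68 in the L6-WT monolayer. The L6-HGF sheet was thus lowest and the L6-WT monolayer highest, with both other cultures between them and close to each other. L6-HGF was 1.75-fold lower than L6-WT in sheets (log2 difference -0.80) and 1.59-fold lower in monolayers (-0.66). The sheet was 1.79-fold lower than the monolayer in L6-HGF (-0.84) and 1.62-fold lower in L6-WT (-0.70). All 4 differences were larger than the largest difference of any bacterial control, and Mmp11 was measured by 1 probe set.

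Mmp14, or MT1-MMP, sits in the cell membrane, where it cuts collagen and activates the proenzyme of Mmp2. Its centred log2 signal was 0.05 in the L6-HGF sheet, -0.31 in the L6-HGF monolayer, 0.45 in the L6-WT sheet and -0.05 in the L6-WT monolayer. The sheet was above the monolayer within each cell line, and L6-HGF was below L6-WT within each format. The log2 difference between sheet and monolayer was 0.36 in L6-HGF and 0.50 in L6-WT, and the hHGF effect was -0.40 in sheets and -0.26 in monolayers. Its 2 probe sets had the same sign throughout but not the same size. Between L6-HGF and L6-WT, one had -0.73 in sheets and -0.46 in monolayers, whereas the other had -0.08 and -0.07. The lower value in L6-HGF therefore rested on 1 probe set, while both probe sets were above 0 for sheet against monolayer, at 0.41 and 0.30 in L6-HGF and at 0.69 and 0.31 in L6-WT.

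The gelatinases Mmp2 and Mmp9, which degrade denatured collagen and the collagen of basement membranes, varied less. Mmp2 had -0.05 in the L6-HGF sheet, -0.19 in the L6-HGF monolayer, 0.15 in the L6-WT sheet and 0.05 in the L6-WT monolayer. Both L6-HGF cultures were below both L6-WT cultures. The log2 difference was -0.20 in sheets and -0.24 in monolayers, and here too 1 probe set carried most of it, with -0.32 and -0.45 for one against -0.08 and -0.03 for the other. Mmp9 had 0.11 in the L6-HGF sheet, -0.26 in the L6-HGF monolayer, 0.20 in the L6-WT sheet and -0.13 in the L6-WT monolayer. Both sheets were above both monolayers, with a log2 difference of 0.37 in L6-HGF and 0.32 in L6-WT. Both probe sets of Mmp9 had a difference above 0 there, from 0.21 to 0.54. Between L6-HGF and L6-WT the gene had -0.08 in sheets and -0.13 in monolayers, which is less than the SD of the controls in sheets.

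Mmp3 and Mmp10 (stromelysin-1 and -2) and the collagenase Mmp13 had the narrowest ranges of the 10 genes. In the annotation they lie on chromosome 8, which also holds Mmp1, Mmp7, Mmp8, Mmp12, Mmp20 and Mmp27. They are known as genes induced by growth factors and cytokines through AP-1, a dimer of FOS and JUN proteins, and they are shown here by the 100 bases before their transcription start. The sequences are from RefSeq on the GRCr8 assembly, 5′ to 3′ on the plus strand, at chr8:12925181-12925280 for Mmp3, chr8:12974607-12974706 for Mmp10 and chr8:12782729-12782828 for Mmp13. Capitals mark the AP-1 motif (TGANTCA) and the TATA box (TATAAA).
Mmp3: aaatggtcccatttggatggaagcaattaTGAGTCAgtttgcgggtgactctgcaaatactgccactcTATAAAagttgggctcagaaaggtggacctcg
Mmp10: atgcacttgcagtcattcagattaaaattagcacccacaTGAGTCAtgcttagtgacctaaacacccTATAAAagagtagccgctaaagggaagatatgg
Mmp13: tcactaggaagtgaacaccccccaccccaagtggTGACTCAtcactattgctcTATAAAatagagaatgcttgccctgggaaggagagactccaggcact

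All 3 carry the AP-1 letters once in the 300 bases searched, with the first base at -71 in Mmp3, -61 in Mmp10 and -66 in Mmp13, and a TATA box between them and the start, at -32, -33 and -47. Both strands were searched from 250 bases before the start to 50 after it. The AP-1 letters occur in 7.33% and the TATA letters in 14.2% of the 33469 rat promoters of this length. A promoter was found for 7 of the 10 genes, and those of Mmp11, Timp1, Timp2 and Timp3 held neither motif in that window. For contrast, the 100 bases before the start are given for Mmp11 (chr20:12730184-12730283, plus strand) and Timp1 (chrX:3771123-3771222, minus strand), which had the widest ranges over the arrays among the 7 genes with a promoter. Timp1 held the ETS motif AGGAAG, which 34.5% of the promoters hold, at -230 and -94. The same letters lie at -206 in Mmp3 and at -95 in Mmp13. No motif was found in Mmp11, and nothing is in capitals here.
Mmp11: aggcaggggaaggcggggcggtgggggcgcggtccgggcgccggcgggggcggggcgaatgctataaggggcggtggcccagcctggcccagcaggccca
Timp1: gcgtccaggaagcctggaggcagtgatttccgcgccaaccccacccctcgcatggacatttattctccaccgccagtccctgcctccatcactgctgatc

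**Figure D1:**
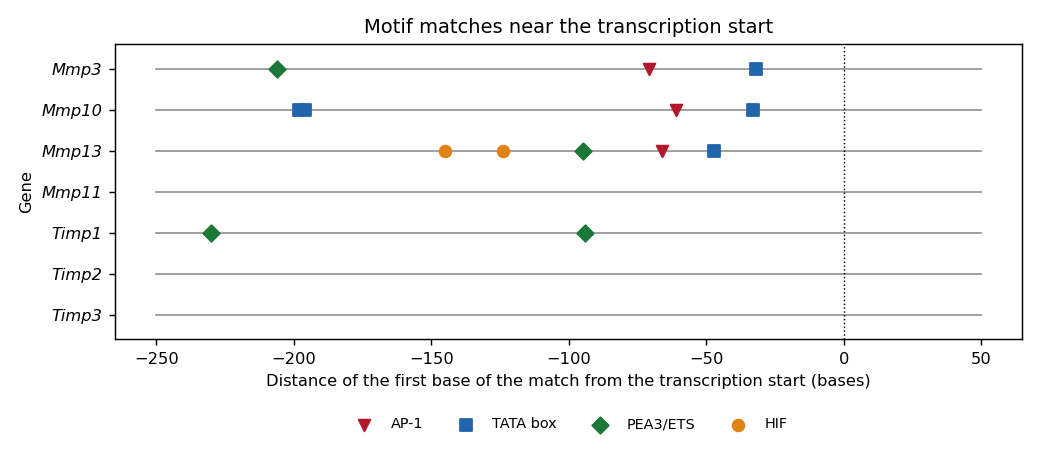
Matches of the AP-1, TATA, ETS (PEA3) and HIF (ACGTG) motifs on either strand in 7 promoters, plotted by the distance in bases of the first base of each match from the transcription start (dotted line); each grey line is 1 promoter. An AP-1 match followed by a TATA match lies within 100 bases of the start of Mmp3, Mmp10 and Mmp13 and in none of the other 4.

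Mmp3 had 0.09 in the L6-HGF sheet, -0.09 in the L6-HGF monolayer, 0.10 in the L6-WT sheet and -0.16 in the L6-WT monolayer. Mmp10 had -0.05, -0.02, 0.24 and 0.02 in the same order, and Mmp13 had 0.02, -0.15, 0.09 and -0.02. For Mmp3 and Mmp13 both sheets were above both monolayers, by at most 0.26, and for Mmp10 only the L6-WT sheet stood above the rest. Between L6-HGF and L6-WT the log2 differences in sheets were -0.01 for Mmp3, -0.28 for Mmp10 and -0.06 for Mmp13, and in monolayers 0.07, -0.04 and -0.12.

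Some transcription factors known to act on such promoters had larger differences in sheets than these 3 genes. Of 15 measured genes of AP-1, ETS, RUNX and NF-κB factors, 4 were more than 2-fold lower in the L6-HGF than in the L6-WT sheet and none was higher, where 1.44% of all genes passed 2-fold in either direction, and 0 passed in monolayers. The 4 genes were Fos (-2.30), Junb (-1.30), Fosb (-1.21) and the ETS factor Etv1 (-1.19). The L6-WT sheet was the highest array for Fos (2.41), Junb (1.37) and Fosb (0.86). The other arrays lay between -0.27 and 0.10 for Fos, between -0.19 and 0.08 for Junb, and between -0.36 and 0.02 for Fosb. The differences of Fos, Junb and Fosb between the sheets thus rest mainly on the value of 1 array. Against the monolayer, Fos and Junb were more than 2-fold higher in the sheet of L6-WT, with 0.37 and 0.16 in L6-HGF against 2.46 and 1.56 in L6-WT. Between the L6-HGF and L6-WT sheets, the 2 probe sets of Fos did not give the same value (-4.78 and 0.18). Nor did they between sheet and monolayer of L6-WT (4.87 and 0.06), so these Fos differences rest on 1 probe set. Fosl1 and Fosl2, other FOS family genes, had 0.32 and 0.17 between the L6-HGF and L6-WT sheets. The median over the 15 genes between these sheets was -0.13, against -0.02 over all genes. The part of these factors in the values of the proteases was not tested.

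**Figure D2:**
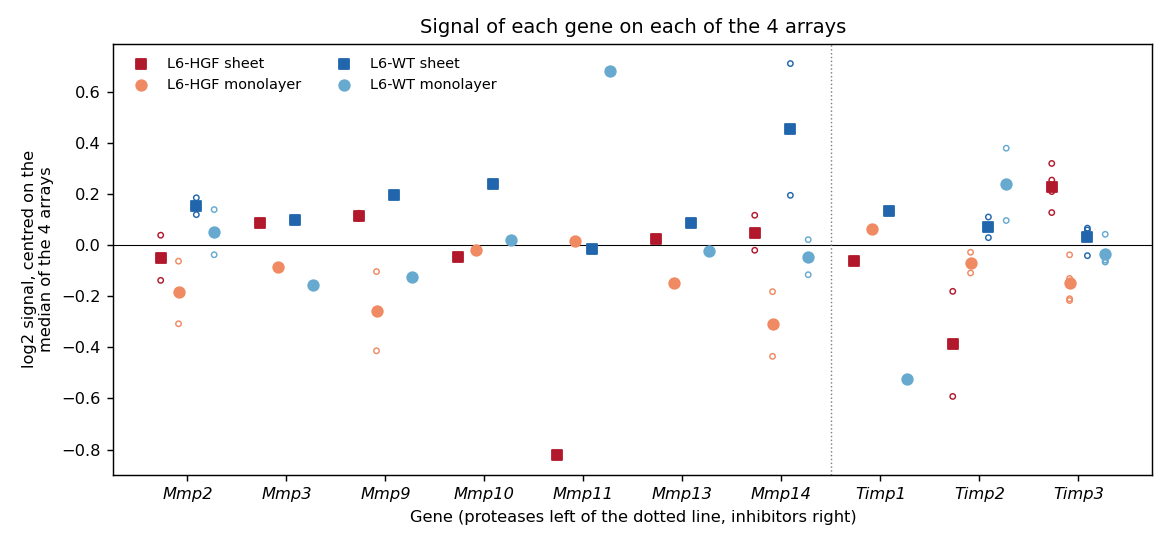
Centred log2 signal (vertical axis) of the 10 genes on the 4 arrays, with filled symbols for the gene (squares for sheets, circles for monolayers) and open circles for single probe sets where a gene has more than 1. Mmp11 runs from -0.82 in the L6-HGF sheet to 0.68 in the L6-WT monolayer, and the L6-WT sheet is the highest array for 6 of the 7 proteases and 1 of the 3 inhibitors, as for 29.2% of all genes.

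Among the inhibitors, Timp1, which is secreted and inducible, binds the proenzyme of Mmp9 and inhibits most secreted metalloproteinases, had its lowest value in the L6-WT monolayer. Its centred log2 signal was -0.06 in the L6-HGF sheet, 0.06 in the L6-HGF monolayer, 0.13 in the L6-WT sheet and -0.53 in the L6-WT monolayer. The first 3 cultures lay within 0.20 of each other, and the L6-WT monolayer stood apart from them. The log2 difference between the L6-HGF and L6-WT monolayers was therefore 0.59, above that of 98.8% of all genes, but it was -0.20 in sheets. The sheet was 1.58-fold higher than the monolayer in L6-WT (0.66) and 1.09-fold lower in L6-HGF (-0.13). The hHGF effect in sheets minus that in monolayers was -0.79, larger in size than for 96.6% of all genes. This difference could not be tested with 1 array per culture, and it rests on 1 probe set and on the value of 1 array.

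Timp2 is produced constitutively by many mesenchymal cells, and it both inhibits Mmp14 and links it to the proenzyme of Mmp2. It had -0.39 in the L6-HGF sheet, -0.07 in the L6-HGF monolayer, 0.07 in the L6-WT sheet and 0.24 in the L6-WT monolayer. These are the lowest and highest arrays of Mmp11 again, and both L6-HGF cultures were below both L6-WT cultures. The hHGF effect was -0.46 in sheets and -0.31 in monolayers. The log2 difference between sheet and monolayer was -0.32 in L6-HGF and -0.17 in L6-WT. The 2 probe sets shared these signs and differed in size, with hHGF effects of -0.70 and -0.21 in sheets.

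Timp3 is held in the extracellular matrix and also inhibits ADAM proteases. It had 0.23 in the L6-HGF sheet, -0.15 in the L6-HGF monolayer, 0.03 in the L6-WT sheet and -0.04 in the L6-WT monolayer, so that the L6-HGF sheet was highest. The log2 difference between sheet and monolayer was 0.38 in L6-HGF and 0.07 in L6-WT. In L6-HGF all 4 probe sets were above 0, from 0.25 to 0.47. Between L6-HGF and L6-WT, Timp3 had 0.20 in sheets, where its 4 probe sets lay between 0.06 and 0.30, and -0.11 in monolayers, where they lay between -0.26 and 0.03.

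**Figure D3:**
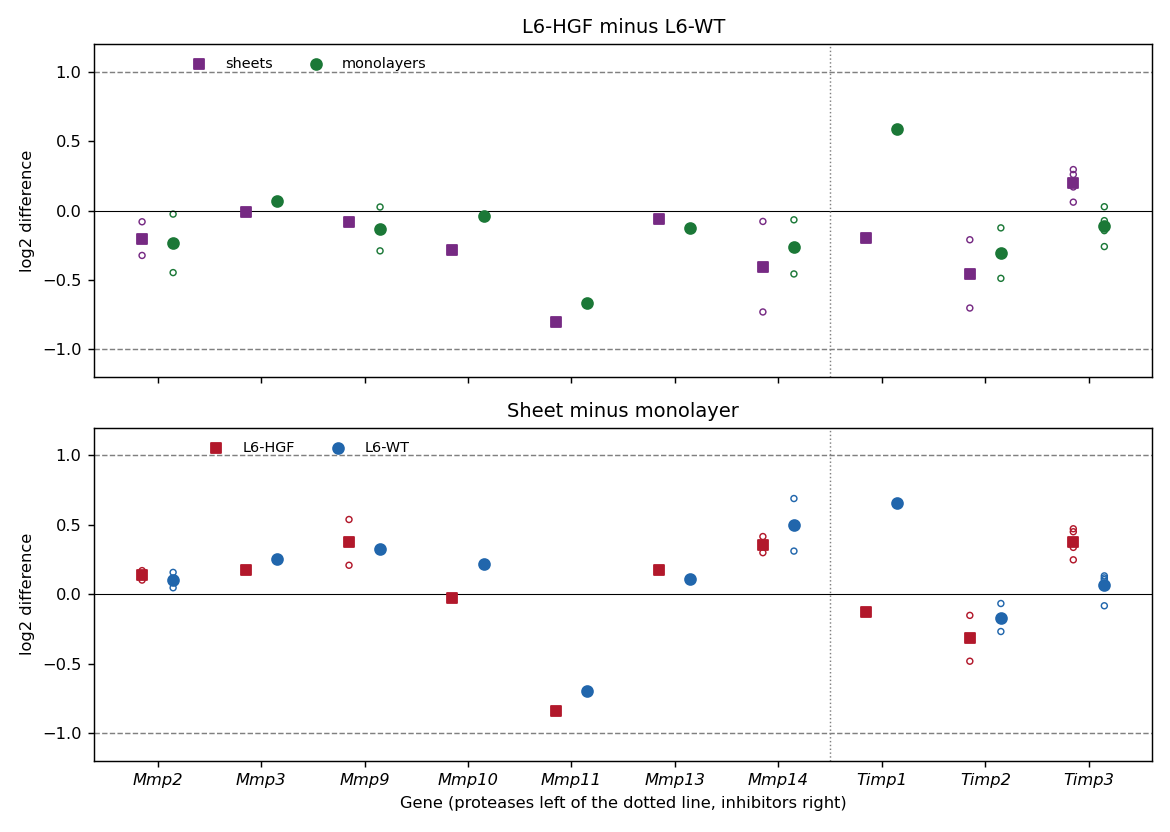
Log2 differences between L6-HGF and L6-WT (upper panel, in sheets and in monolayers) and between sheet and monolayer (lower panel, in L6-HGF and in L6-WT) for the 10 genes, each from 1 array per culture. Filled symbols are genes, open circles single probe sets, and dashed lines mark 2-fold; no gene crosses them, Mmp11 lies between -0.84 and -0.66 in all 4 comparisons, and Timp1 lies on opposite sides of 0 within each panel.

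Taken by role, the proteases leaned to lower values in L6-HGF and to higher values in sheets. In L6-HGF, 6 of 7 proteases were below L6-WT in both formats, as were 30.4% of all genes, and the exception, Mmp3, was within 0.08 of 0 in each. None of the 7 was above L6-WT in both formats, against 27.2% of all genes. The median of the proteases was -0.20 in sheets and -0.13 in monolayers, against -0.02 and 0.00 over all genes. In sheets it was -0.08 without the probe sets whose names mark them as shared between transcripts or genes. Between sheet and monolayer, 5 of 7 proteases (Mmp2, Mmp3, Mmp9, Mmp13 and Mmp14) were above 0 in both cell lines, as were 39.5% of all genes. Mmp11 was below 0 in both, as were 31.3% of all genes, and Mmp10 had -0.03 in L6-HGF and 0.22 in L6-WT. The median was 0.17 in L6-HGF and 0.22 in L6-WT, against 0.03 and 0.03 over all genes. Of the 28 protease differences in the 4 comparisons, 10 were smaller than 1 SD of the bacterial controls. Between L6-HGF and L6-WT this held for 4 of 7 proteases in sheets and 2 of 7 in monolayers. The counts of signs are given as a description.

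The 3 inhibitors did not move together. For L6-HGF against L6-WT, Timp2 was below 0 in both formats, and Timp1 and Timp3 had opposite signs in the 2 formats. For sheet against monolayer, Timp3 was above 0 and Timp2 below 0 in both cell lines, and Timp1 had opposite signs. Their median was -0.20 in sheets and -0.11 in monolayers for L6-HGF against L6-WT, and -0.13 in L6-HGF and 0.07 in L6-WT for sheet against monolayer.

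**Figure D4:**
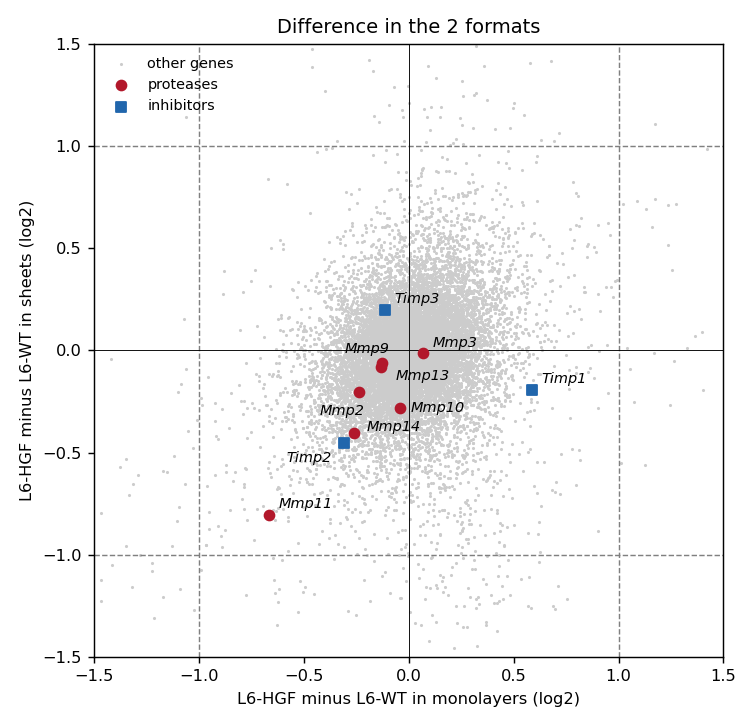
The hHGF effect (log2 difference) in monolayers on the horizontal and in sheets on the vertical axis for the 7 proteases, the 3 inhibitors and, in grey, all other genes, from 1 array per culture; dashed lines mark 2-fold and 52 genes lie outside the plotted range. The proteases other than Mmp3 lie below 0 on both axes, with Mmp11 farthest out, and Timp1 lies to the right at 0.59 and -0.20.

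Differences of a protease and of the inhibitor it is known to bind can be set side by side, as ratios of array signals. Whether a gene lies near background is not known here, so such a ratio need not follow that of the mRNAs. The pairs were picked from what is known of these proteins, with the values already known. The ratio of Mmp14 to Timp2 differed between L6-HGF and L6-WT by 0.05 (log2) in sheets and 0.04 in monolayers. These small values depend on the mean of the 2 unequal probe sets of Mmp14, since the one that stayed near 0 had -0.08 and -0.07, against -0.46 and -0.31 for Timp2. Between sheet and monolayer that ratio was higher by 0.67 in L6-HGF and by 0.67 in L6-WT, since Mmp14 was above 0 and Timp2 below 0. The ratio of Mmp9 to Timp1 differed between L6-HGF and L6-WT by 0.11 in sheets and -0.72 in monolayers, where Timp1 differed by 0.59 and Mmp9 by -0.13. Between sheet and monolayer it differed by 0.50 in L6-HGF and by -0.34 in L6-WT, with opposite signs. The ratio of Mmp2 to Timp2 differed by 0.25 and 0.07 in the same order, and between sheet and monolayer by 0.45 in L6-HGF and 0.27 in L6-WT. The ratio of Mmp14 to Timp3 differed by -0.60 in sheets and -0.15 in monolayers. Between sheet and monolayer it differed by -0.02 in L6-HGF and 0.43 in L6-WT. These values too depend on the unequal probe sets of Mmp14. In sheets they had -0.73 and -0.08 between L6-HGF and L6-WT, against 0.20 for Timp3. Between sheet and monolayer of L6-WT they had 0.69 and 0.31.

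A limma model over all 4 arrays, with terms for cell line and format and 1 residual degree of freedom, was fitted to all 31042 probe sets. For the effect of hHGF over both formats it called 0 probe sets (0%) at an adjusted p under 0.05. At an unadjusted p under 0.05 it gave 2977 probe sets, 9.59% of all, and 4 of the 17 probe sets of the set. Mmp11 had a log2 difference of -0.73 ± 0.11 (SE, limma adjusted p = 0.505), below 0 in both formats. The other 3 were 1 each of Mmp14 (-0.59 ± 0.12), Timp2 (-0.59 ± 0.12) and Mmp2 (-0.38 ± 0.11), all at the same limma adjusted p of 0.505. For the sheet effect common to both cell lines it also called 0 probe sets (0%), with 6333 or 20.4% at an unadjusted p under 0.05, 5 of them among the 17. Mmp11 had -0.77 ± 0.11 (limma adjusted p = 0.158), both probe sets of Mmp14 0.55 ± 0.12 and 0.30 ± 0.10 (limma adjusted p = 0.177 and 0.232), and 1 of Mmp9 0.43 ± 0.12 (limma adjusted p = 0.197). The fifth was 1 of the 2 probe sets of Timp2, at -0.38 ± 0.12 (limma adjusted p = 0.216). The other probe set of Timp2 had -0.11 ± 0.10 (limma adjusted p = 0.587). The residual of this model also holds any difference of an effect between formats or cell lines. Timp1 had the widest error of the 17 probe sets, 0.22, where the median was 0.11 and the smallest 0.10. With 1 array per culture, these errors are not a spread between replicate cultures.

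Of 15 other metalloproteinase genes, 10 were measured, and Mmp15 was the one past 2-fold. Over all genes, the share past 2-fold was 0.535% to 3.75% in the 4 comparisons. Mmp15 (MT2-MMP), like Mmp14 a membrane-bound protease, had -1.03 in the L6-HGF sheet, 0.07 in the L6-HGF monolayer, -0.07 in the L6-WT sheet and 1.41 in the L6-WT monolayer. This is the order of Mmp11. L6-HGF was 1.94-fold lower than L6-WT in sheets (-0.96) and 2.54-fold lower in monolayers (-1.35), and the sheet was 2.14-fold lower than the monolayer in L6-HGF and 2.80-fold lower in L6-WT. Mmp16 (MT3-MMP), also membrane-bound, had the same highest and lowest arrays, with log2 differences between -0.68 and -0.54 in the 4 comparisons. The L6-WT monolayer was highest and the L6-HGF sheet lowest for 2 of the 10 genes of the set, Mmp11 and Timp2. Of the 10 other metalloproteinase genes measured, Mmp15, Mmp16 and Mmp19 had the same highest and lowest arrays. In Mmp19 the monolayers were nearly equal, at 0.09 in L6-WT and 0.08 in L6-HGF. Such an order was found for 10.3% of all genes. Mmp7, Mmp8, Mmp12, Mmp17, Mmp19, Mmp23, Mmp24 and Mmp28 lay between -0.33 and 0.47 in every comparison. Timp4, the remaining TIMP, had -0.21 in sheets and 0.20 in monolayers between L6-HGF and L6-WT. Its lowest array, at -0.25, was the L6-WT monolayer, as for Timp1. The same array was lowest for the proteases Mmp3, Mmp7, Mmp8 and Mmp24, and for 25% of all genes. Reck, a membrane-anchored inhibitor of metalloproteinases, stayed within 0.13 in all comparisons.

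Some genes that act before and beside these proteases reached larger differences in sheets. The median between the L6-HGF and L6-WT sheets was -0.11 over genes of activation and clearance. It was -0.16 over ADAM and ADAMTS genes and their relatives, against -0.02 over all genes. Over all genes, 1.44% in sheets and 0.535% in monolayers passed 2-fold between L6-HGF and L6-WT. Between sheet and monolayer, 3.75% in L6-HGF and 1.21% in L6-WT did so. A count of 0 or 1 in such short lists is no result about the list. Of 11 measured genes of proenzyme activation and clearance, Plau was the one past 2-fold between L6-HGF and L6-WT. Plau is the urokinase that starts plasmin-driven activation of proenzymes. It was 2.03-fold lower in the L6-HGF sheet (-1.02) and 1.28-fold lower in the L6-HGF monolayer (-0.36). Against the monolayer, Plau was 3.36-fold lower in the sheet of L6-HGF and 2.12-fold lower in that of L6-WT. Bsg (EMMPRIN), a surface protein known to induce metalloproteinases in neighbouring fibroblasts, was 2.97-fold higher in the sheet than in the monolayer of L6-HGF and 1.93-fold higher in L6-WT. Furin, which cleaves the prodomains of Mmp11 and Mmp14, had differences between -0.24 and -0.02. Of 15 measured ADAM and ADAMTS genes and their relatives, Adamts1 and Adamts7 passed 2-fold. Adamts1, which cuts proteoglycans, was 2.54-fold lower in L6-HGF than in L6-WT in sheets and 1.55-fold lower in monolayers. Adamts7, which cuts the matrix protein COMP, was 2.05-fold lower in the sheet than in the monolayer of L6-WT. In L6-HGF it was 1.96-fold lower in the sheet. Of 20 matrix substrates, 0 passed 2-fold between L6-HGF and L6-WT in either format. Their median was -0.09 in sheets and -0.22 in monolayers, against -0.02 and 0.00 over all genes. Of the 20, 13 were below 0 in sheets and 17 in monolayers, as were 53.7% and 49.4% of all genes. Between sheet and monolayer, 12 of the 20 were below 0 in L6-HGF and 16 in L6-WT, as were 45.9% and 45.6% of all genes, with medians of -0.08 and -0.31. The proteoglycan Dcn was the one past 2-fold there, 5.24-fold higher in the sheet of L6-HGF and 10.3-fold higher in that of L6-WT.

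Some markers of fibroblasts differed with format and with cell line. Of 7 fibroblast markers, 4 were more than 2-fold higher and 1, Col14a1, was lower in the sheet than in the monolayer of L6-HGF, and 4 were higher in that of L6-WT (Dcn, Dpt, Lum and Postn in both), with medians of 1.04 and 2.07. Past 2-fold in either direction were 3.75% and 1.21% of all genes. Thy1 was below 0 in both cell lines (-0.52 in L6-HGF and -0.42 in L6-WT), and Pdgfra had -0.38 in L6-HGF and 0.01 in L6-WT. Between L6-HGF and L6-WT, Dpt and Postn were more than 2-fold lower in each format, where 1.44% of all genes in sheets and 0.535% in monolayers passed 2-fold. The medians were -0.85 in sheets, with 7 of 7 below 0, and -0.21 in monolayers, with 4 of 7 below 0. Of 5 myoblast, 5 macrophage and 4 endothelial markers, none passed 2-fold in any comparison. All 4 cultures are of the L6 myoblast line, so the markers serve only to say how they differ between arrays. Summed levels of these lists cannot be given from centred values, and in bulk RNA fewer cells of a type and less RNA per cell cannot be told apart. The part of the fibroblast markers in the values of the proteases and inhibitors was not tested.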

How the data were processed

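RNA of 4 cultures was hybridised to 1 Affymetrix array each. The authors normalized the arrays with RMA (version not given in the sources used here), and the deposited log2 values were found to be centred on each probe set's median over the 4 arrays. The genome build behind the array is not given in the sources used here.

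Of 31099 probe sets, 57 control probe sets were left out. In all, 20826 probe sets had 1 gene symbol, 436 several and 9780 none listed, and those with 1 symbol gave 14217 genes as means. Differences were taken between pairs of arrays, with the 2-fold threshold that the study used. limma (version 3.58.1, R 4.3.3) was fitted to all probe sets with Benjamini-Hochberg adjustment. It was also run on simulated data with equal noise for all probe sets and changes larger than those of any member. That run does not show how the model performs at the sizes found here. Python 3.11.15 with pandas 2.3.3 did the rest. Groups came from the sample titles. The members and gene lists were chosen with earlier results of these data known. All 10 members are named, with family genes and list genes past 2-fold. The rule for naming genes of like profile applied to members past 2-fold and named none. Quantile normalization, array centring, medians of probe sets, fewer probe sets, a 1.5-fold threshold and other limma models were tried as alternatives.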

Additional observations from a re-analysis of the deposited data

Results flagged for a closer look

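For some genes an effect had opposite signs in the 2 formats or in the 2 cell lines, each from 1 array per culture, and this difference was not tested. It applied to the hHGF effect of 3 of the 10 genes, as of 42.1% of all genes, and to the sheet effect of 2 of the 10, as of 28.9% of all genes. Timp1 had the widest gap, with an hHGF effect (log2) of -0.20 in sheets and 0.59 in monolayers, -0.79 apart. Its sheet effect was -0.13 in L6-HGF and 0.66 in L6-WT, also -0.79 apart, since both gaps come from the same 4 values. Timp3 had an hHGF effect of 0.20 in sheets and -0.11 in monolayers, 0.31 apart. Mmp10 had a sheet effect of -0.03 in L6-HGF and 0.22 in L6-WT, -0.24 apart. Mmp3 had an hHGF effect of -0.01 in sheets and 0.07 in monolayers, -0.082 apart, which is below the SD of the bacterial controls.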

How the results depend on the processing

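The count of 0 genes past 2-fold held in all 4 comparisons under quantile normalization, array centring, medians of probe sets, calls by any single probe set and removal of shared probe sets. With a 1.5-fold threshold it was 1 in sheets and 2 in monolayers for L6-HGF against L6-WT, and 1 in L6-HGF and 2 in L6-WT for sheet against monolayer. Over all genes, quantile normalization of the centred values left 94 genes past 2-fold between the L6-HGF and L6-WT sheets, against 205. The 40 differences of the members (10 genes in 4 comparisons) were compared with their values in the main setting. Under quantile normalization, 37 moved by less than 1 SD of the bacterial controls. So did 37 without probe sets that end in _s_at, _x_at or _a_at, and 40 under each of the other 2 settings. No sign changed. The exceptions were 2 values of Mmp11 and 1 of Timp1 under quantile normalization, and 3 values of Mmp14 without its shared probe set. The medians of proteases and inhibitors moved by less than that SD in all 4 settings. Without shared probe sets, however, the hHGF effect had a protease median in sheets of -0.08 against -0.20, and an inhibitor median in monolayers of -0.06 against -0.11. The inhibitor median of the sheet effect in L6-WT was then 0.12, and 0.11 with medians of probe sets, against 0.07. Neither limma on gene means, which called 2 genes for the sheet effect, nor a model without the other term called a member. Leaving out 1 array leaves the model with both terms no residual, and it was not run in the model without the other term.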
